A study of Mus musculus with 5 samples.

Results

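The endoplasmic reticulum (ER) stress response was described here through 36 genes, matched by symbol among the 36401 genes of the deposited tables. They were read in 4 arms: 6 sensors and transcription factors, 15 chaperones and folding genes of the ATF6 and XBP1 branches, 7 genes of ER degradation and 8 genes of the ATF4 amino acid response. RNA had been sequenced from liver lobe 1 of BALB/C pups killed on day 10 of life. There were 3 libraries of Mdr2+/- pups and 2 of Mdr2+/+ pups. The line came from Mdr2-/- mice crossed back into BALB/c, the genotypes were raised together as littermates, and the labels name no other treatment or transgene. Mdr2 is the older name of Abcb4, the floppase that carries phosphatidylcholine into bile. The labels number the libraries without stating outright that each is a separate pup, so p-values measure the spread between these libraries only. The comparison asks how transcripts of this response differ in liver when an Mdr2 allele is missing.

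Secreted and membrane proteins fold in the ER, and hepatocytes, which export most plasma proteins, carry a heavy folding load. When unfolded proteins accumulate, the sensors ATF6, IRE1 (encoded by Ern1) and PERK (Eif2ak3) respond. ATF6 is cut into a transcription factor, IRE1 splices Xbp1 mRNA, and PERK phosphorylates the translation factor eIF2, which favours synthesis of ATF4. ATF6 and XBP1 raise chaperone and degradation genes, and ATF4 raises genes of amino acid synthesis and transport.

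Library totals were 12991301, 16596923 and 17312851 estimated counts in Mdr2+/- livers, against 14644529 and 11944157 in Mdr2+/+ livers. Abcb4 had 101, 97.7 and 92.6 CPM (the gene's count scaled to a common library total, with TMM normalisation) in Mdr2+/- libraries, against 162 CPM in both Mdr2+/+ libraries. The hepatocyte markers summed to 232300 to 250100 CPM in Mdr2+/- livers, against 221300 and 238800 CPM in Mdr2+/+ livers. Alb alone averaged 138200 CPM in Mdr2+/- and 125300 CPM in Mdr2+/+ livers. Of 12 hepatocyte markers 1 rose, Cps1, at 1.83 times the Mdr2+/+ level, and 1 fell, Apoa1, at 0.863 times. The log2 fold change of Apoa1 was -0.21, or -0.07 with an offset for transcript length. Blood cell markers differed by genotype: 11 of 12 tested neutrophil and progenitor markers rose (sums 383 to 491 CPM, against 128 and 181 CPM), and 9 of 11 erythroid markers fell (sums 3410 to 3966 CPM, against 5873 and 7089 CPM). Of 8 B cell markers 5 rose and 0 fell (sums 35.4 to 40.8 CPM, against 15.1 and 19.95 CPM). Of 10 Kupffer cell and macrophage markers 3 fell and 0 rose (sums 444 to 517 CPM, against 426 and 623 CPM). The 3 were Marco, Cd163 and C1qb, with log2 fold changes of -1.03, -0.58 and -0.35. Without Mdr2+/+ replicate 1 these shrank to -0.37, -0.37 and -0.20, so much of the difference rested on that library. In bulk RNA, fewer cells of a type and less RNA per cell cannot be told apart.

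Of the 36 members, 35 passed the filter on low counts and were tested. In Mdr2+/- livers 10 of them fell and 2 rose, past an adjusted p of 0.05 (edgeR's quasi-likelihood test, Benjamini-Hochberg, across the 13959 genes tested). Over all tested genes 12.0% passed, with 6.63% higher (925) and 5.41% lower (755); by library size alone, without TMM factors, the split was 704 higher and 936 lower. The chaperone and folding arm had 8 of 15 members lower and 0 higher. The ATF4 arm had 2 of 8 lower and 0 higher. Among the sensors and factors 1 of 6 rose, and among the 6 tested degradation genes 1 rose. The median log2 fold change (Mdr2+/- minus Mdr2+/+) was -0.23 for chaperones and folding genes, -0.45 for the ATF4 arm, 0.08 for sensors and factors and 0.08 for degradation, beside -0.0025 over all tested genes. Over the 35 tested members together it was -0.18. Groups did not overlap in 19 members that were lower and 7 that were higher, beside 22.7% and 22.9% of all tested genes, or 45.5% in either direction.

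**Figure D1:**
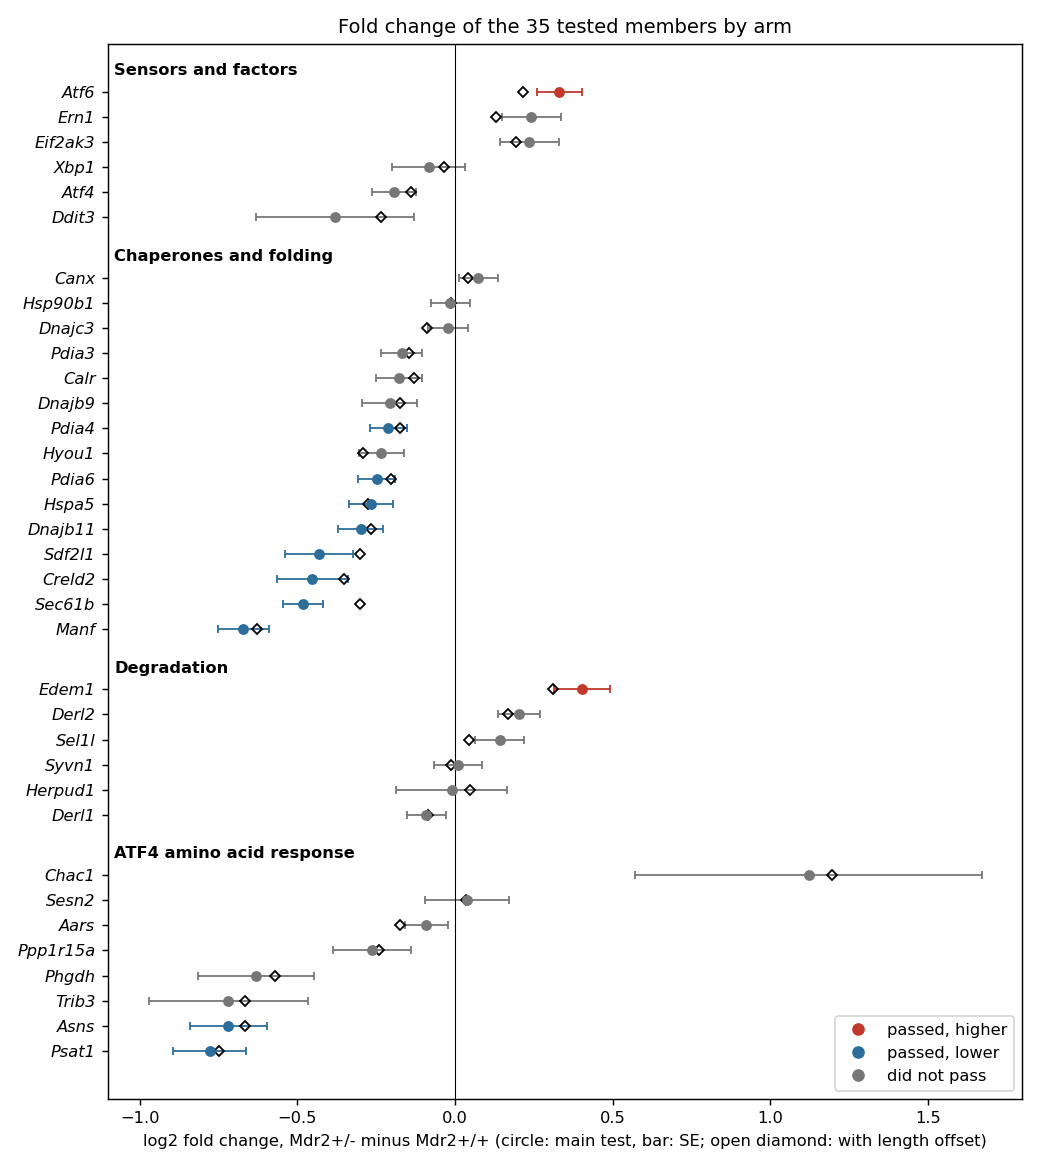
Each row is a tested member, grouped by arm. The horizontal axis is the log2 fold change, Mdr2+/- minus Mdr2+/+ (circle with its SE from edgeR, open diamond with an offset for transcript length). Manf, Sec61b, Asns and Psat1 lie farthest below 0 among the members that passed, and Atf6 and Edem1 are the 2 that passed above it.

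Each library was also set against the Mdr2+/+ mean. As that mean comes from the 2 Mdr2+/+ libraries themselves, their own values mirror each other around 0 by construction. The median log2 difference over the chaperone arm was -0.31, -0.19 and -0.20 in Mdr2+/- replicates 1, 2 and 3, against 0.01 and -0.01 in the Mdr2+/+ libraries. Over the ATF4 arm it was -0.57, -0.34 and -0.31, against -0.04 and 0.04. All 3 Mdr2+/- libraries therefore lay below both Mdr2+/+ libraries in these arms, with replicate 1 the lowest. The summed level of the 15 chaperone and folding genes was 3379, 3667 and 3573 CPM in Mdr2+/- livers, against 4005 and 3939 CPM in Mdr2+/+ livers.

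**Figure D2:**
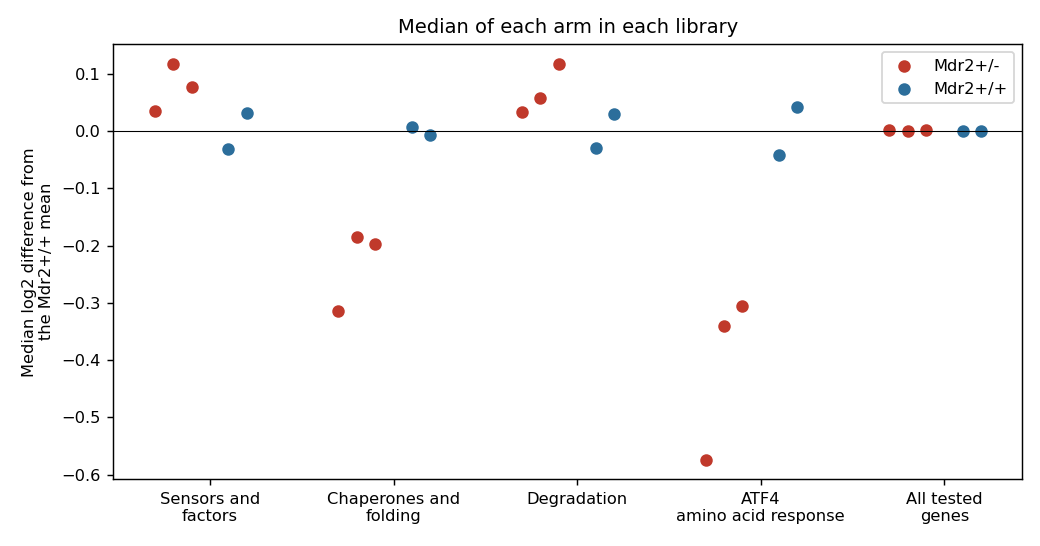
Each point is a library, and the vertical axis is the median over an arm's tested members of the log2 difference from the Mdr2+/+ mean. The Mdr2+/+ points mirror each other around 0 because the reference is their own mean. The Mdr2+/- points lie at -0.31 to -0.19 for the chaperone arm and -0.57 to -0.31 for the ATF4 arm, and at about 0 over all tested genes.

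Sensors and transcription factors opened the pathway, and a single gene of this arm passed the test. Atf6, the sensor cut in the Golgi to release a chaperone-inducing factor, had 49.1, 49.95 and 47.3 CPM in Mdr2+/- livers, against 36.9 and 40.7 CPM in Mdr2+/+ livers. Atf6 was thus higher in every Mdr2+/- library (log2 fold change 0.33, SE 0.07, adjusted p = 0.0178). Its call was lost without Mdr2+/- replicate 2 (adjusted p = 0.0638), without Mdr2+/+ replicate 1 (0.116) and with an offset for transcript length (log2 fold change 0.22, 0.104). Ern1, whose product splices Xbp1, had 31.0, 27.9 and 25.9 CPM in Mdr2+/- livers, against 23.1 and 24.6 CPM in Mdr2+/+ livers. Eif2ak3, the PERK kinase, had 21.3, 19.2 and 19.6 CPM, against 17.7 and 16.2 CPM. Neither sensor gene passed (adjusted p = 0.126 and 0.137 in edgeR), although the groups did not overlap.

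The 3 factors of this arm did not pass. Xbp1 had 95.2, 128 and 127 CPM in Mdr2+/- livers, against 122 and 126 CPM in Mdr2+/+ livers, so the groups overlapped (log2 fold change -0.08, SE 0.12). Gene-level counts sum spliced and unspliced Xbp1, so its activation by IRE1 was not measured here. Atf4, the factor translated when eIF2 is phosphorylated, had 59.7, 60.9 and 66.8 CPM in Mdr2+/- livers, against 69.7 and 73.4 CPM in Mdr2+/+ livers (log2 fold change -0.19, adjusted p = 0.107). Ddit3, which encodes the death-linked factor CHOP, was scarce at 2.90, 2.61 and 3.95 CPM, against 4.95 and 3.20 CPM. Ddit3 overlaps 68 exon bases of the more abundant antisense gene Mars, and whether counting used the strand is not given in the sources used here.

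The chaperone and folding arm is known for a promoter element, ERSE, through which ATF6 acts with the factor NF-Y. RefSeq promoter sequences (GRCm38.p6, 250 bases before to 50 after each start) matched 32 of the 36 members with 34 sequences; Atf6, Hyou1, Derl1 and Manf had none. ERSE was searched on both strands as CCAAT and CCACG with 9 bases of any kind between them, and found in 9 of the 34 sequences, beside 0.119% of all 32851 promoter sequences. The related ERSE-II, searched as ATTGG and CCACG with 1 base between them, was found for Dnajb11 and Herpud1, beside 0.0365% of all. UPRE, searched as TGACGTGG, was found in 0 of 34, beside 0.676% of all. No matches of these motifs, or of the CARE motif described with the ATF4 arm, overlapped each other within a member. The following stretches, on the strand of the gene, show the ERSE match in capitals with 20 bases on each side, for Hspa5, Pdia6 and Creld2, which fell, and then for Calr, Hsp90b1, Canx, Dnajc3 and Syvn1, which did not pass. In Creld2, Calr and the match of Hsp90b1 nearer its start, the capitals are the reverse complement of the motif. Syvn1 belongs to the degradation arm. Derl3, of the same arm, also had an ERSE match but was not tested, and its stretch is not shown. Positions refer to the RefSeq starts, and the GENCODE extents of several of these genes, Hsp90b1 and Pdia6 among them, begin further upstream. Those of Hspa5, Asns and Aars take in the whole stretch shown.
Hspa5, chr2:34772005-34772063, plus strand: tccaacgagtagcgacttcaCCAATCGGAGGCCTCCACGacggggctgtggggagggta
Pdia6, chr12:17266471-17266529, plus strand: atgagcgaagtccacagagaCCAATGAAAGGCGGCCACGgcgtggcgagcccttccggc
Creld2, chr15:88819500-88819558, plus strand: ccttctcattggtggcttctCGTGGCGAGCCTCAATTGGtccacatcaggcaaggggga
Calr, chr8:84847055-84847113, minus strand: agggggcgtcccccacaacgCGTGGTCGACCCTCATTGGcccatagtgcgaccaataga
Hsp90b1 far, chr10:86705618-86705676, minus strand: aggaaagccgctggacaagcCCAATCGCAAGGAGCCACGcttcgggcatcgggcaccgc
Hsp90b1 near, chr10:86705513-86705571, minus strand: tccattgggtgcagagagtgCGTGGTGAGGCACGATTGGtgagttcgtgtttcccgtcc
Canx, chr11:50325780-50325838, minus strand: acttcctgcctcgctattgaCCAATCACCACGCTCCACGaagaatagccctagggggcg
Dnajc3, chr14:118937807-118937865, plus strand: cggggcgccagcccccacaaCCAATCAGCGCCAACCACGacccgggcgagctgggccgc
Syvn1, chr19:6046512-6046570, plus strand: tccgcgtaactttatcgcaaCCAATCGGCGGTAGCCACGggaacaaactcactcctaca
The match to the letters was thus present in members that fell and in members that did not pass. Pdia4, Sdf2l1 and Sec61b, which fell, had no ERSE match in this window.

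The folding genes that changed were all lower in Mdr2+/- livers. Manf, a secreted ER protein that binds the chaperone BiP, had 42.1, 48.6 and 50.1 CPM in Mdr2+/- livers, against 73.1 and 76.8 CPM in Mdr2+/+ livers. It had the largest difference of the arm, at 0.628 of the Mdr2+/+ level (log2 fold change -0.67, SE 0.08, adjusted p = 0.00141). Its exons share 146 bases with the antisense gene Vprbp and 166 with the antisense gene 4930524O07Rik. Sec61b, a subunit of the channel through which new proteins enter the ER, had 36.8, 38.5 and 37.9 CPM in Mdr2+/- livers, against 52.8 and 52.7 CPM in Mdr2+/+ livers. The spread within each genotype was small beside the difference (log2 fold change -0.48, SE 0.06, adjusted p = 0.00211), which was -0.30 with the length offset. Manf and Sec61b passed in all 13 alternative fits.

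Creld2, a folding factor induced with Manf, had 24.9, 28.2 and 30.9 CPM in Mdr2+/- livers, against 42.5 and 34.1 CPM in Mdr2+/+ livers. Sdf2l1, a partner of BiP and its co-chaperones, had 12.7, 14.3 and 13.7 CPM, against 19.8 and 16.7 CPM. In both genes Mdr2+/+ replicate 1 was the highest library (log2 fold changes -0.45 and -0.43, SE 0.11 each, adjusted p = 0.0317 and 0.0306 in edgeR). Without that library the log2 fold change was -0.28 for Creld2 and -0.30 for Sdf2l1 (adjusted p = 0.229 and 0.19). Creld2 also lost its call without Mdr2+/- replicate 1 or 2, and Sdf2l1 without any of the 3 Mdr2+/- replicates.

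Hspa5 encodes BiP, the ER Hsp70 chaperone that also restrains the sensors. Hspa5 had 556, 627 and 587 CPM in Mdr2+/- livers, against 727 and 691 CPM in Mdr2+/+ livers. Every Mdr2+/- library lay below both Mdr2+/+ libraries, at 0.832 of the Mdr2+/+ level (log2 fold change -0.27, SE 0.07, adjusted p = 0.0375). Dnajb11, a co-chaperone of BiP, had 56.1, 59.2 and 64.1 CPM in Mdr2+/- livers, against 75.2 and 72.1 CPM in Mdr2+/+ livers (log2 fold change -0.30, SE 0.07, adjusted p = 0.0266). Other partners of BiP did not pass: Hyou1, the nucleotide exchange factor, had 86.3, 96.2 and 95.8 CPM, against 113 and 105 CPM (log2 fold change -0.23, adjusted p = 0.0616). Dnajb9 had a log2 fold change of -0.21 (adjusted p = 0.156), and Dnajc3 -0.02 (adjusted p = 0.849). Hyou1 did pass by library size alone (adjusted p = 0.0496), in robust limma (0.0469) and with the length offset (0.0377).

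Protein disulfide isomerases, which form and shuffle disulfide bonds, differed by small amounts. Pdia6 had 278, 289 and 288 CPM in Mdr2+/- livers, against 340.4 and 337 CPM in Mdr2+/+ livers (log2 fold change -0.25, SE 0.06, adjusted p = 0.0271). Pdia4 had 182, 177 and 182 CPM, against 209 CPM in both Mdr2+/+ libraries (log2 fold change -0.21, SE 0.06, adjusted p = 0.0456). Pdia3, the isomerase that works with calreticulin and calnexin, had 424, 465 and 443 CPM, against 491 and 508 CPM, and did not pass (log2 fold change -0.17, adjusted p = 0.124). Hspa5, Pdia4 and Pdia6 each lost their call with any of the 5 libraries left out (adjusted p = 0.0523 to 0.147), in smaller fits. Their log2 fold changes in those fits were -0.31 to -0.22 for Hspa5, -0.22 to -0.20 for Pdia4 and -0.26 to -0.23 for Pdia6. Dnajb11 lost its call with any but Mdr2+/- replicate 3 left out (0.068 to 0.125).

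The lectin chaperones and the ER Hsp90 did not pass. Calr, the calcium-binding lectin calreticulin, had 623, 717 and 695 CPM in Mdr2+/- livers, against 778 and 755 CPM in Mdr2+/+ livers (log2 fold change -0.18, adjusted p = 0.150). Canx, its membrane-bound relative calnexin, had 310.3, 321 and 325 CPM, against 296 and 309 CPM, the only positive fold change of the arm (0.07, adjusted p = 0.478). Hsp90b1, which encodes GRP94, had 570.4, 613 and 588 CPM, against 599 and 594 CPM (log2 fold change -0.02, SE 0.06). Levels per length, in CPM per kilobase of the longest transcript, were highest for Calr (310.5 in Mdr2+/- and 351 in Mdr2+/+ livers), Hsp90b1 (183 and 185), Hspa5 (161 and 193) and Pdia3 (160.4 and 180.3). Among the members that fell, Sdf2l1 was the least abundant of the arm per length (12.2 in Mdr2+/- and 16.5 in Mdr2+/+ livers).

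The count of lower chaperone and folding genes, 8 of 15, fell to 2 without Mdr2+/- replicate 1 or 2 or Mdr2+/+ replicate 1, and to 4 without Mdr2+/- replicate 3 or Mdr2+/+ replicate 2. With the length offset it was 5 of 15, beside 3.90% of all tested genes lower. Plasma cells, another cell type rich in folding genes, were checked by 10 markers, of which 9 were tested. Of these 4 rose (Pou2af1, Irf4, Mzb1 and Sdc1, at 3.94, 2.81, 2.00 and 1.32 times the Mdr2+/+ level) and 1 fell (Fkbp11). Prdm1, Txndc5 and Eaf2 did not pass (log2 fold changes -0.21, -0.14 and -0.12), and the median over the 9 was -0.12. Fkbp11 and Txndc5 also belong to the list of other folding and translocation genes. Mzb1 lost its call with any library but Mdr2+/- replicate 2 left out, and Sdc1 without Mdr2+/+ replicate 1. The summed level of the 10 markers was 747 to 826 CPM in Mdr2+/- livers, against 684 and 702 CPM in Mdr2+/+ livers, most of it Sdc1, which hepatocytes also make, and Txndc5. The joining chain gene Igj had 2.36, 3.52 and 3.26 CPM, against 6.21 and 4.04 CPM, and did not pass (adjusted p = 0.071), and Tnfrsf17 was at 0 in 4 of 5 libraries. The part of blood cell markers in these differences was not tested.

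**Figure D3:**
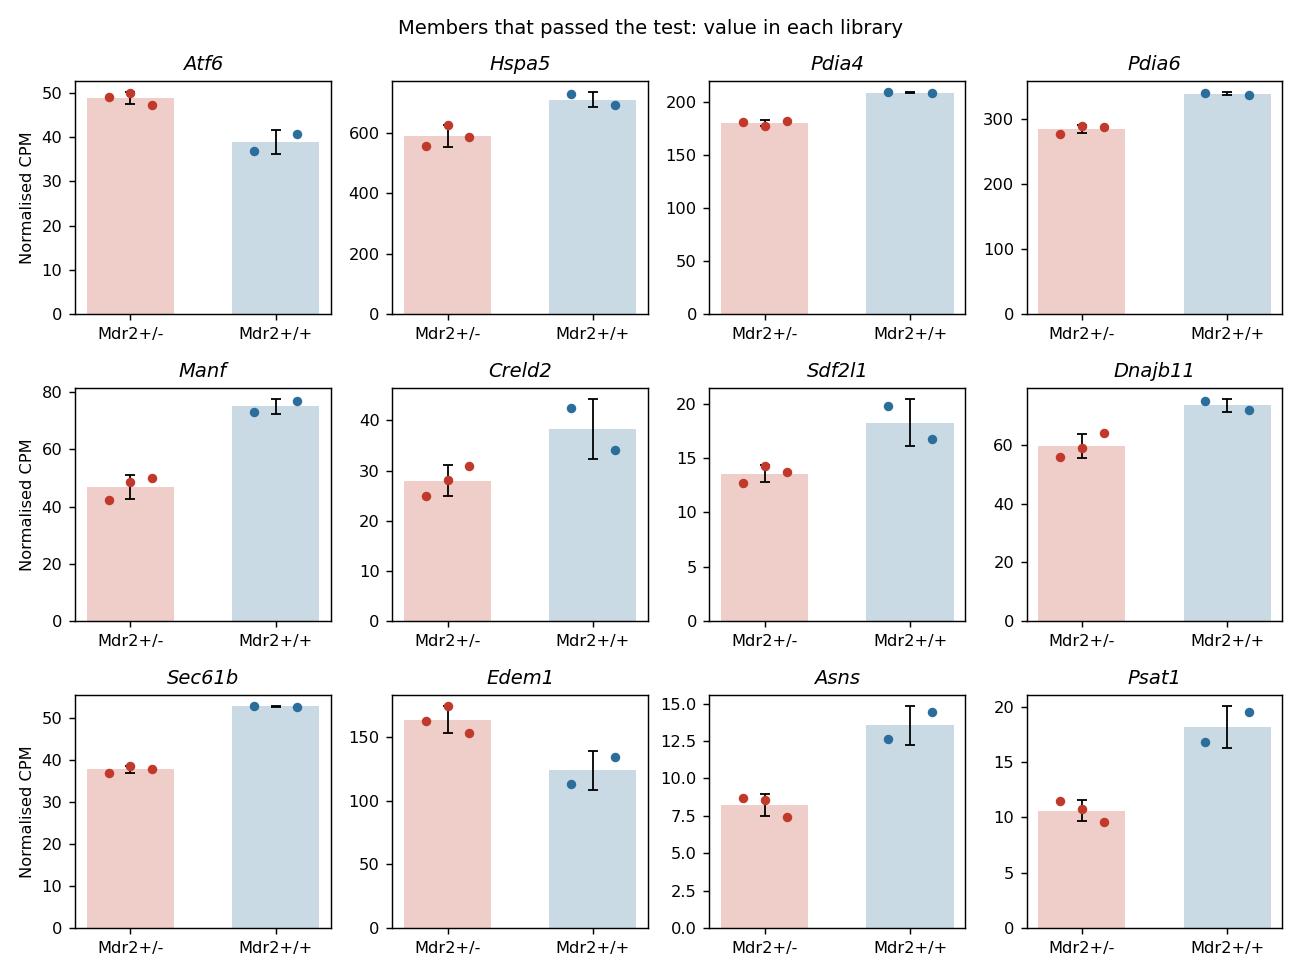
Each panel is a member that passed the test, with normalised CPM per library as points, the mean as a bar from 0 and the SD as an error bar (3 Mdr2+/- and 2 Mdr2+/+ libraries). The groups do not overlap in any of the 12 panels, and Atf6 and Edem1 are the panels where Mdr2+/- is higher.

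Degradation genes export misfolded proteins from the ER to the proteasome, and 1 of 6 tested members passed, upwards. Edem1, a lectin that hands misfolded glycoproteins to the export machinery, had 162, 175 and 153 CPM in Mdr2+/- livers, against 113 and 134 CPM in Mdr2+/+ livers. All 3 Mdr2+/- libraries were higher (log2 fold change 0.40, SE 0.09, adjusted p = 0.0188), with the call lost without Mdr2+/- replicate 2 (0.0638), without Mdr2+/+ replicate 1 (0.123) and with the length offset (log2 fold change 0.31, 0.0661). Derl2, a channel component, had 64.2, 69.9 and 69.7 CPM, against 58.6 and 59.6 CPM (log2 fold change 0.20, adjusted p = 0.0774). Its exons share 231 bases with the antisense gene Mis12. Sel1l, the scaffold of the ubiquitin ligase, had 218 to 249 CPM in Mdr2+/- livers, against 207 ± 9.97 CPM in Mdr2+/+ livers (SD, n = 2; log2 fold change 0.14, adjusted p = 0.274).

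The remaining degradation genes lay near 0 or had a wide spread. Syvn1, the ligase HRD1, had 56.0, 58.8 and 61.3 CPM in Mdr2+/- livers, against 62.2 and 54.3 CPM in Mdr2+/+ livers (log2 fold change 0.01). Derl1 had 116, 126 and 119 CPM, against 128 and 129 CPM (log2 fold change -0.09, adjusted p = 0.374). Herpud1, an organiser of the ligase complex and a sensitive reporter of ER stress, had 163, 181 and 197 CPM, against 136 and 229 CPM. The Mdr2+/+ libraries thus bracketed all 3 Mdr2+/- libraries (log2 fold change -0.01, SE 0.18), and without Mdr2+/+ replicate 2 the log2 fold change was 0.41. Derl3, better known from secretory tissues, was not tested at 0.628, 0.728 and 0.407 CPM, against 0.594 and 0.589 CPM (27 and 16 counts in all). Of 10 pancreatic acinar markers, 6 were at 0 in every library, and Cpa1 and Prss2 had a count of 1 each. Cela1 was present at 6.4, 6.9 and 6.5 CPM in Mdr2+/- livers, against 6.4 and 6.9 CPM in Mdr2+/+ livers. Amy2b had 2.59, 3.16 and 3.37 CPM, against 2.77 and 4.04 CPM. Neither Cela1 nor Amy2b passed.

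Genes of the ATF4 amino acid response fell in part, led by enzymes that make serine and asparagine. Psat1, the transaminase of serine synthesis, had 11.5, 10.7 and 9.60 CPM in Mdr2+/- livers, against 16.8 and 19.5 CPM in Mdr2+/+ livers. Its level in Mdr2+/- livers was 0.583 of that in Mdr2+/+ livers (log2 fold change -0.78, SE 0.11, adjusted p = 0.00369). Asns, asparagine synthetase, had 8.71, 8.56 and 7.39 CPM, against 12.6 and 14.5 CPM (log2 fold change -0.72, SE 0.12, adjusted p = 0.00653). Psat1 and Asns passed in all 13 alternative fits. Phgdh, which starts serine synthesis, had 4.24, 4.79 and 3.90 CPM, against 5.75 and 7.74 CPM, and did not pass (log2 fold change -0.63, SE 0.18, adjusted p = 0.0533). Phgdh did pass by library size alone (0.0417), with no filter (0.0157) and in robust limma (0.04).

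Members of this arm tied to stress feedback did not pass. Trib3, a pseudokinase induced by ATF4 and CHOP, had 1.26, 1.46 and 1.98 CPM in Mdr2+/- livers, against 2.84 and 2.35 CPM in Mdr2+/+ livers (log2 fold change -0.72, SE 0.25, adjusted p = 0.0969). Ppp1r15a, the phosphatase subunit GADD34 that reverses eIF2 phosphorylation, had 12.6, 15.7 and 16.7 CPM, against 18.9 and 17.2 CPM (log2 fold change -0.26, adjusted p = 0.200). In these pairs of groups no Mdr2+/- library reached the lower Mdr2+/+ library. Chac1, which degrades glutathione, varied most: 1.96, 6.50 and 7.62 CPM, against 1.25 and 4.04 CPM (log2 fold change 1.12, SE 0.55, adjusted p = 0.219). Chac1 passed without Mdr2+/- replicate 1 (log2 fold change 1.49, adjusted p = 0.0452) and with no filter (0.0247). Sesn2 had 17.8, 16.3 and 13.0 CPM, against 15.4 and 15.1 CPM (log2 fold change 0.04), and Aars, alanyl-tRNA synthetase, had 151, 165 and 166 CPM, against 176 and 165 CPM (log2 fold change -0.09).

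ATF4 with a C/EBP partner is known to bind a CARE element, searched as TGATGNAA on both strands. It was found for Asns, Trib3, Chac1, Aars and Herpud1, in 5 of 34 member sequences, beside 3.97% of all promoter sequences. The stretches below show a match in capitals, on the gene's strand, for Asns, which fell, and for Chac1 and Aars, which did not pass. A further match of Aars, downstream of its start, and the matches of Trib3 and Herpud1 are not shown. In Chac1 and Aars the capitals are the reverse complement.
Asns, chr6:7693205-7693252, minus strand: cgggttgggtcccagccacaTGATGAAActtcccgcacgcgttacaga
Chac1, chr2:119351029-119351076, plus strand: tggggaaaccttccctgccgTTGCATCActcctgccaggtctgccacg
Aars, chr8:111033710-111033757, plus strand: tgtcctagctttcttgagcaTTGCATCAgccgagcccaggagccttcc
Psat1, the member of the arm with the lowest fold change, had no match in either of its promoter sequences.

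Other genes of the pathway, in 5 lists of 136 genes with 133 tested, included 20 lower and 8 higher. Together 21.05% of the 133 were called, beside 12.0% of all tested genes (6.63% higher and 5.41% lower). With the length offset 14 of the 133 were lower and 5 higher, beside 3.90% and 5.06% of all tested genes. Among 39 tested folding and translocation genes 11 fell and 0 rose, or 28.2% called (median log2 fold change -0.14). With the length offset 7 of these genes were lower and 0 higher (median -0.09). Sec61g, the partner of Sec61b in the translocation channel, had 41.4, 42.9 and 42.6 CPM in Mdr2+/- livers, against 62.9 and 64.4 CPM in Mdr2+/+ livers (log2 fold change -0.59, adjusted p = 8.3e-04). Fkbp11, a prolyl isomerase, had 16.6, 14.6 and 15.8 CPM, against 27.9 and 26.1 CPM (log2 fold change -0.79, adjusted p = 0.0011). The signal peptidase subunit Spcs2 (log2 fold change -0.39, adjusted p = 0.00488) and the translocon-associated Ssr3 (-0.28, adjusted p = 0.0219) also fell. Ssr3 lost its call without any single Mdr2+/- replicate or Mdr2+/+ replicate 2 (0.0566 to 0.106). The genes of this list that fell and are not named here each passed in only 5 to 8 of the 13 alternative fits.

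Among 29 tested genes of the integrated stress response, the wider programme around ATF4, 5 fell and 1 rose (median -0.14). That was 20.7% called, beside 12.0% of all tested genes. Psph, the last enzyme of serine synthesis, had 13.2, 12.1 and 12.5 CPM in Mdr2+/- livers, against 18.3 and 19.2 CPM in Mdr2+/+ livers (log2 fold change -0.57, adjusted p = 0.00541). Psph was thus lower, as was the previous enzyme of that pathway, Psat1. Mthfd2, a mitochondrial folate enzyme (log2 fold change -0.74, adjusted p = 0.0219), the amino acid carrier Slc7a5 (-0.53, 0.0265) and the alanine transaminase Gpt2 (-0.35, 0.0431) fell too. Single libraries ended some of these calls: Mthfd2 without Mdr2+/- replicate 3 or Mdr2+/+ replicate 1 (0.069 and 0.153), Slc7a5 without any library but Mdr2+/+ replicate 2 (0.0667 to 0.171), and Gpt2 without any but Mdr2+/+ replicate 1 (0.0552 to 0.234; log2 fold change -0.22 without Mdr2+/+ replicate 2). Of 19 cytosolic tRNA synthetase genes 2 rose and 0 fell (median -0.06), or 10.5% called beside 12.0% of all tested genes, namely Tars (0.29, adjusted p = 0.0206) and Eprs (0.23, 0.0436). Tars lost its call without Mdr2+/- replicate 2 or 3 or Mdr2+/+ replicate 1 (0.0614 to 0.129), and Eprs with any library left out (0.0568 to 0.223) and with the length offset (log2 fold change 0.15, adjusted p = 0.192).

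Other degradation genes split, with 3 of 24 higher and 2 lower (median 0.09). That was 20.8% called, beside 12.0% of all tested genes, and rested on few genes. The ligase gene Marchf6, found by its Ensembl identifier, had 147, 148 and 143 CPM in Mdr2+/- livers, against 106 and 114 CPM in Mdr2+/+ livers, and rose (March6 in the list, log2 fold change 0.41, adjusted p = 0.00435). The mannosidase Man1b1 rose (0.31, adjusted p = 0.0183; 0.108 without Mdr2+/+ replicate 1). The selenoprotein genes Vimp (-0.24, adjusted p = 0.0338) and Selk (-0.31, 0.0394) fell, each losing its call with any library left out (0.0508 to 0.143) and with the length offset. Of 22 other signalling genes, 2 rose and 2 fell, or 18.2% called (median -0.05), again few genes. The hepatocyte membrane-bound factor Creb3l3 (0.28, adjusted p = 0.0236) and the ER-anchored factor Nfe2l1 (0.31, 0.0253) rose, while the death effector Bax (-0.36, 0.0459) and the death receptor Tnfrsf10b (-0.75, 0.0477) fell. Creb3l3 lost its call with any library but Mdr2+/- replicate 3 left out (0.0519 to 0.115), Nfe2l1 with any but Mdr2+/- replicate 1 (0.0612 to 0.14), and Bax and Tnfrsf10b with any (0.053 to 0.251). With the length offset Bax (-0.23, adjusted p = 0.199), Nfe2l1 (0.26, 0.0658) and Tnfrsf10b (-0.75, 0.0574) did not pass.

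Fold changes in these libraries moved with transcript length. For the 13571 genes whose length was known, log2 fold change and longest transcript had a Spearman correlation of 0.274, given as a description since genes share libraries. Among the shortest 20% of genes the median log2 fold change was -0.13, and among the longest 20% it was 0.11. The 10 members that fell had transcripts of 723 (Sec61b) to 3672 bases (Hspa5). Of these 10, 3 were among the shortest 20% of genes and none was among the longest 20%. Of the 23 members that did not pass, 2 were among the shortest 20% and 3 among the longest 20%. Both members that rose, Atf6 (7246 bases) and Edem1 (6077 bases), were among the longest 20%. With an offset for length 7 members passed, all lower, beside 8.96% of all tested genes, 5.06% higher and 3.90% lower: Manf, Sec61b, Psat1, Asns, Hspa5, Dnajb11 and, newly, Hyou1. The arm medians with that offset were -0.20 for chaperones and folding genes, -0.41 for the ATF4 arm, 0.05 for sensors and factors and 0.05 for degradation.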

How the data were processed

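Per the labels' protocols, total RNA of snap-frozen liver was made into Illumina TruSeq libraries. TopHat and the mm10 build are named by the submitters' processing notes. Which counting tool and annotation were used, and whether strand was, is not given in the sources used here. The deposited tables hold estimated counts per Ensembl gene, not scaled to depth or length, 1 table per library. Of the 35 tested members, 29 had fractional counts in at least 1 library.

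Estimated counts were rounded (totals shifted by 201 to 309), filtered with filterByExpr (minimum count 10, 13959 genes left) and scaled by TMM. They were tested in edgeR 4.0.16 (glmQLFit and glmQLFTest, two-sided, no covariate, 3 Mdr2+/- against 2 Mdr2+/+), and p-values were adjusted by Benjamini-Hochberg over the whole table. Each SE was derived from the log2 fold change and its F statistic. A floor of 3 counts is 0.173 to 0.251 CPM per library, for counting error only. Libraries were not duplicates: chi-square per degree of freedom was 5.30 to 8.86 within a genotype. On simulated counts, 50.8%, 80.3% and 98.5% of genes changed by 0.5, 1 and 2 (log2) were recovered. The simulation changed 200 genes, used the fitted dispersion trend and held no trend with transcript length. No change under 0.5 was simulated, so recovery of the smaller differences seen in most chaperone genes was not measured.

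Coordinates and longest transcripts came from GENCODE M21 on the same build, and 31782 of 36401 identifiers matched. The length offset was a lowess curve, per library, of each gene's log2 CPM minus its mean over libraries against transcript length, added to the edgeR model. Other alternatives were library size alone, DESeq2 size factors, no filter, a filter of 10 counts, the DESeq2 1.42.0 Wald test, robust limma-trend (limma 3.58.1, prior count 2), the replicate number as a block and each library left out. All 36 members are named; of each list of other pathway genes, up to 4 that passed, by p-value. The members and lists were chosen with earlier results of these data known, and lists were described by counts and medians, with no set test. Mia3 and the marker Ahsp matched no row.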

Additional observations from a re-analysis of the deposited data

How the results depend on the processing

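The number of members that passed, 12 in the main test, was 11 to 14 under both other scalings, both other filters, DESeq2 and robust limma, and 7 with the length offset. With 1 library left out it was 4 to 8, the lowest without Mdr2+/- replicate 2 or Mdr2+/+ replicate 1, in fits that also lose a degree of freedom. Over all genes the count with a library left out was 697 to 1174. By arm, sensors and factors had 0 to 1, chaperones and folding genes 2 to 4, degradation genes 0 to 1 and ATF4 genes 2 to 3; the other pathway genes had 9 to 11. With the length offset, sensors and degradation had 0 each and chaperones 5. The ATF4 arm had 4 with no filter, and the other pathway genes 18 in DESeq2. Of 13 alternatives, Manf, Sec61b, Asns and Psat1 passed in 13, Atf6 and Edem1 in 10.

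The labels do not say whether a replicate number marks a shared litter. Deviations from the group means correlated by 0.03 between same-numbered libraries. The deviations of the 2 Mdr2+/+ libraries mirror each other by construction, so these correlations cannot decide whether litters were shared. Only Mdr2+/- has a replicate 3, so with the replicate block that library adds nothing to the genotype difference. With the block 8 members passed: chaperones and folding genes had 4, and the other pathway genes 12. Over all tested genes 1277 passed with the block, against 1680 without it. The block ended the calls of Hspa5, Pdia4, Pdia6 and Sdf2l1, at log2 fold changes of -0.26, -0.22, -0.26 and -0.43. Leaving out Mdr2+/- replicate 3 ended the same calls.

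Directions turned only for members near 0 that did not pass. Herpud1 (main -0.01) had 0.030 in robust limma and 0.047 with the length offset, and -0.35 to 0.41 with a library left out. Syvn1 (0.01) had -0.030 by library size alone, -0.020 with the replicate block and -0.014 with the length offset, and -0.0805 to 0.11 with a library left out. Sesn2 (0.04) had -0.00081 by library size alone and -0.053 to 0.16 with a library left out. Leaving out a library gave -0.16 to 0.044 for Xbp1, -0.042 to 0.011 for Hsp90b1 and -0.056 to 0.0019 for Dnajc3. The cause was not tested. At these totals Derl3 was too scarce to test, and Ddit3, Trib3, Chac1 and Phgdh were measured at under 8 CPM.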
